A study of Mus with 6 samples.

Results

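Gene expression of the ionotropic GABA receptor was examined in mouse brain tissue that the labels call basolateral amygdala, a part of the brain needed for learned fear. The genes described are 7 subunit genes of the GABA-A receptor, taken by their symbols from a list and grouped by chromosome, among 54532 genes in the table. They are Gabrb2 on chromosome 11, Gabra2, Gabra4, Gabrb1 and Gabrg1 on chromosome 5, and Gabra5 and Gabrg3 on chromosome 7. All 7 were present and all 7 passed the filter on low values, a mean of at least 0.5 FPKM. Libraries came from 3 mice labelled as CNTNAP4 knockout (KO) and 3 labelled as wild type (WT), with a library made from each and all labelled male. The strain, age, treatment and knockout allele are not stated in the labels. Cntnap4 encodes a cell adhesion protein of neurons that is related to neurexins.

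The GABA-A receptor is a chloride channel that opens when GABA binds and so mediates most fast inhibition in the brain. Each channel is a ring of subunits, usually built from alpha, beta and gamma types. GABA binds between alpha and beta subunits, and classical benzodiazepines bind between alpha and gamma subunits. Most subunit genes lie in clusters that hold alpha, beta and gamma genes side by side, which are thought to have arisen from the duplication of an ancestral cluster. Which subunits a neuron expresses sets where its receptors sit, how long their channels conduct and which drugs act on them.

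Libraries held 17647556 to 20813211 reads in genes. The targeted gene Cntnap4 measured 1.61, 1.00 and 1.48 FPKM in KO replicates 1 to 3, against 2.03, 3.59 and 4.91 FPKM in WT replicates 1 to 3. The library labelled KO replicate 1 had 14528 reads of Xist, which is expressed from an inactive X chromosome. It had 0 reads on each of Ddx3y, Eif2s3y, Kdm5d and Uty, genes of the Y chromosome. Every other library had 1 to 11 reads of Xist and had reads on all of these Y genes. By these genes KO replicate 1 was female, against its label, so KO held both sexes and WT only males. Markers of cell types and regions also differed, most of all in KO replicate 2. The summed level of 5 hypothalamic neuron genes was 1068, 2.66 and 341 FPKM in KO replicates 1 to 3, against 953, 908 and 486 FPKM in WT replicates 1 to 3. Most of each sum was Avp, at 894, 2.20 and 325 FPKM in KO, against 783, 695 and 350 FPKM in WT. Oxt was most of the remainder in WT, and Hcrt lay below the filter. The summed level of 6 excitatory neuron genes was 44.1, 130 and 44.7 FPKM in KO, against 26.4, 27.0 and 24.7 FPKM in WT. Of the 6, 5 stood higher in KO without overlap. Slc17a6 did not, at 11.8, 5.40 and 15.3 FPKM in KO, against 15.5, 17.0 and 13.5 FPKM in WT. Its log2 difference was -0.59. Other lists separated all 3 KO from all 3 WT libraries, in every case with 0 members past the adjusted threshold. The 4 markers of basolateral amygdala projection neurons summed to 54.7, 135 and 42.7 FPKM in KO, against 23.4, 21.7 and 22.9 FPKM in WT. All 4 stood higher in KO without overlap. Slc17a7 and Neurod6 are on both this list and the list of excitatory neuron genes. The 6 oligodendrocyte markers summed to 854, 618 and 930 FPKM in KO, against 1049, 1383 and 1036 FPKM in WT, with 5 of 6 lower without overlap. The 4 thalamic and septal markers summed to 13.0, 9.45 and 11.3 FPKM in KO, against 15.5, 15.5 and 17.0 FPKM in WT. Of these, 3 of 4 were lower without overlap. Medium spiny neurons are striatal projection neurons. Their 6 markers summed to 1199, 1420 and 1024 FPKM in KO, against 950, 709 and 927 FPKM in WT, with 4 of 6 higher without overlap. Over all genes tested, 11.8% stood higher in KO and 10.8% lower without overlap. Slc17a7, the vesicular glutamate transporter of cortical and amygdalar projection neurons, measured 21.4, 94.3 and 19.1 FPKM in KO, against 5.69, 5.37 and 6.42 FPKM in WT. Ppp1r1b, a marker of striatal projection neurons, averaged 398 ± 81.7 FPKM in KO and 248 ± 31.0 FPKM in WT (SD, n = 3 each). The values therefore describe the tissue pieces as dissected. In such bulk tissue, fewer cells of a type and less RNA per cell cannot be told apart.

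On chromosome 5 the 4 genes span 1398 kb, from 70751047 to 72149037 (GRCm38). Gabrg1 (70751047 to 70842617), Gabra2 (70957597 to 71095849) and Gabra4 (71569749 to 71658308) lie on the minus strand in that order, and Gabrb1 (71658113 to 72149037) lies on the plus strand. Gabra4 and Gabrb1 are arranged head to head, and their annotated 5′ ends overlap by 196 bases. The gaps between neighbours are 115 kb from Gabrg1 to Gabra2 and 474 kb from Gabra2 to Gabra4. On chromosome 7, Gabrg3 (56716465 to 57387188) and Gabra5 (57407672 to 57510059) both lie on the minus strand with 20.5 kb between them. Gabrb2 lies on the plus strand of chromosome 11 (42419757 to 42629028). Gabrb1 and Gabra5 also overlap annotated antisense genes, Gm38562 and Gm9962. The labels do not state whether counting used strand, which leaves the origin of reads in such overlaps uncertain. Gabra5 shares most of its annotated span, introns included, with a further gene on the other strand. Overlap of exons was not examined, so it is uncertain whether the Gabra5 values are affected.

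None of the 7 genes passed the test of KO against WT over all genes, which was limma on log2(FPKM + 0.5) with Benjamini-Hochberg adjustment and a threshold of 0.05. Over all genes 0.0124% passed, which is 2 of 16155. Of the 7 genes 2, Gabrb2 and Gabrg1, stood lower in each KO library than in any WT library and had an unadjusted p under 0.05. Both also had an unadjusted p under 0.05 with KO replicate 1 or KO replicate 2 left out. Of all genes tested, 10.8% stood below WT without overlap and 6.85% were lower at an unadjusted p under 0.05. The log2 differences (KO minus WT) were negative for 5 of the 7 genes and positive for 2, Gabra4 and Gabra5. The median over the 7 was -0.17, and the median over all genes tested was 0.0067. Within chromosome 5 the genes lay on both sides of zero, and the same was true of chromosome 7.

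**Figure D1:**
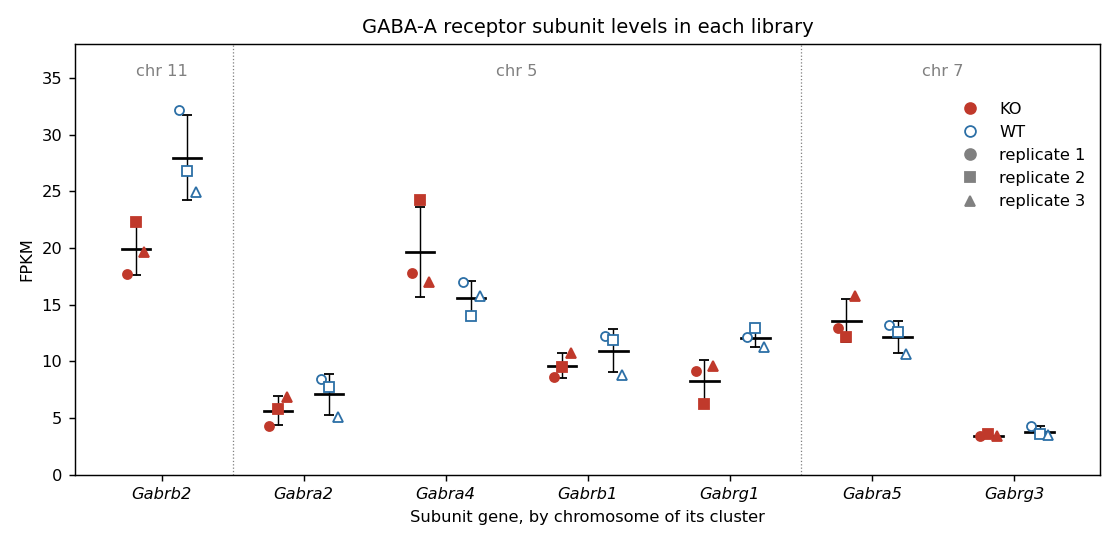
FPKM of the 7 subunit genes (x axis, ordered by chromosome) in each library (y axis), with KO filled and left of WT, horizontal bars for group means and error bars for the SD (n = 3 per group). The KO and WT points separate for Gabrb2 (17.7 to 22.3 against 24.9 to 32.2 FPKM) and Gabrg1 (6.21 to 9.59 against 11.2 to 12.9 FPKM) and overlap for the other genes.

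Gabrb2, which encodes the beta2 subunit, a partner in many synaptic receptors, had the highest mean of the 7 in both groups, although Gabra4 exceeded it in 2 of 3 KO libraries. Its level was 17.7, 22.3 and 19.7 FPKM in KO libraries 1 to 3, against 32.2, 26.8 and 24.9 FPKM in WT libraries 1 to 3. The highest KO library lay below the lowest WT library. These levels rest on 2117 to 2562 reads in KO libraries and 3064 to 3778 reads in WT libraries. The 95% Poisson intervals of the nearest libraries, 21.4 to 23.1 FPKM for KO replicate 2 and 24.1 to 25.8 FPKM for WT replicate 3, did not overlap. They cover counting error within a library only, not the spread between mice. Reads without molecular identifiers are not independent molecules, so the intervals may be too narrow even for that error. Mean levels were 19.9 ± 2.28 FPKM in KO and 28.0 ± 3.77 FPKM in WT (SD, n = 3 each), and the KO mean was 71.0% of the WT mean. The log2 difference was -0.48 ± 0.12 (standard error), with an unadjusted limma p of 0.00549 and an adjusted p of 0.207, and it ranked 426 of all genes by p. An exact permutation test, two-sided, gave p = 0.1, the lowest value possible with 3 libraries in each group. Leaving out any single library gave log2 differences from -0.56 to -0.38, and without KO replicate 1 the value was -0.40.

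Gabrg1 encodes gamma1, a gamma subunit that gives receptors low sensitivity to classical benzodiazepines and is known from amygdala and from some glial cells. Its level was 9.12, 6.21 and 9.59 FPKM in KO libraries 1 to 3, against 12.1, 12.9 and 11.2 FPKM in WT libraries 1 to 3. All 3 KO libraries lay below all WT libraries, and KO replicate 2 was the lowest. The mean was 8.31 ± 1.83 FPKM in KO and 12.1 ± 0.840 FPKM in WT (SD, n = 3 each), or 68.7% of WT. The log2 difference of -0.54 ± 0.16 had an unadjusted limma p of 0.0116 and an adjusted p of 0.230. The same exact permutation test again gave p = 0.1. Without KO replicate 2 the log2 difference was -0.35, with an unadjusted limma p of 0.00555, and without KO replicate 1 it was -0.61. KO replicate 2 is the library with 2.66 FPKM of hypothalamic neuron markers, and the part of those cells in the Gabrg1 level was not tested. Astrocyte markers, summed over 6 genes, measured 546, 415 and 480 FPKM in KO and 458, 486 and 457 FPKM in WT, with KO replicate 2 again the lowest and overlap between the groups. Most of that sum was Aldoc, at 354, 259 and 285 FPKM in KO and 276, 286 and 262 FPKM in WT. The markers did not agree on the lowest library. Aldoc, Gja1 and Gfap were lowest in KO replicate 2, but Aqp4 in KO replicate 1, Slc1a3 in WT replicate 1 and Aldh1l1 in KO replicate 3. Oligodendrocyte and thalamic or septal markers, given above, separated the groups in the same direction as Gabrg1 and Gabrb2. Their part in either gene's level was not tested.

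Gabra4 encodes alpha4, which pairs with the delta subunit in receptors outside synapses that carry tonic inhibition. Its level was 17.8, 24.2 and 17.0 FPKM in KO libraries 1 to 3, against 17.0, 14.0 and 15.8 FPKM in WT libraries 1 to 3. KO replicate 2 was well above the rest, and KO replicate 3 lay just below WT replicate 1, so the groups overlapped. The mean was 19.7 ± 3.96 FPKM in KO and 15.6 ± 1.48 FPKM in WT (SD, n = 3 each). The log2 difference was 0.31 ± 0.14, with an unadjusted limma p of 0.0672 and an adjusted p of 0.362. Without KO replicate 2 it was 0.16. Medium spiny neuron markers, 6 genes of striatal projection neurons, which are rich in this subunit, summed to 1199, 1420 and 1024 FPKM in KO and 950, 709 and 927 FPKM in WT. These sums separated the groups, with 4 of 6 genes higher in KO without overlap, against 11.8% of all genes tested. The highest sum was in KO replicate 2 and the lowest in WT replicate 2, the same libraries as for Gabra4. The part of these markers in the Gabra4 level was not tested.

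Gabrd, the delta partner of alpha4, lies on chromosome 4 and is no cluster gene. Its level was 27.2, 41.9 and 23.5 FPKM in KO libraries 1 to 3, against 21.0, 16.7 and 20.1 FPKM in WT libraries 1 to 3. Each KO library exceeded each WT library, with the extremes in the same libraries as for Gabra4. Its log2 difference was 0.63 ± 0.21, with an unadjusted limma p of 0.0218 and an adjusted p of 0.269.

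Gabra2 encodes alpha2, a subunit found at the axon initial segment and linked to the anxiety-relieving action of benzodiazepines. Its level was 4.34, 5.77 and 6.89 FPKM in KO libraries 1 to 3, against 8.49, 7.74 and 5.07 FPKM in WT libraries 1 to 3. WT replicate 3 lay inside the KO range. The mean was 5.67 ± 1.28 FPKM in KO and 7.10 ± 1.80 FPKM in WT, with a log2 difference of -0.29 ± 0.22 and an adjusted limma p of 0.559. Its coefficient of variation between replicates, 22.6% in KO and 25.3% in WT, was the largest of the 7 genes in each group. With KO replicate 1 left out the difference was -0.13. With WT replicate 1 or 3 left out it was -0.16 or -0.50.

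Gabrb1 encodes beta1, which is less abundant in forebrain than the other beta subunits. Its level was 8.58, 9.54 and 10.8 FPKM in KO libraries 1 to 3, against 12.2, 11.8 and 8.77 FPKM in WT libraries 1 to 3. The groups overlapped through WT replicate 3, as they did for Gabra2. The log2 difference was -0.17 ± 0.14, with an adjusted limma p of 0.601. With KO replicate 1 left out it was -0.09. With WT replicate 1, 2 or 3 left out it was -0.08, -0.11 or -0.31. Its head-to-head neighbour Gabra4 had a difference of the opposite sign.

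On chromosome 7, Gabra5 encodes alpha5, a subunit of receptors outside synapses that is best known from hippocampus. Its level was 12.9, 12.1 and 15.7 FPKM in KO libraries 1 to 3, against 13.2, 12.6 and 10.6 FPKM in WT libraries 1 to 3. KO replicate 3 was the highest and WT replicate 3 the lowest, with the other 4 libraries close together. The log2 difference was 0.15 ± 0.12 and the adjusted limma p 0.580. It was 0.05 with KO replicate 3 left out, 0.06 with WT replicate 3 left out and 0.10 when libraries were rescaled to the same FPKM sum. Its neighbour Gabrg3 encodes gamma3, a minor gamma subunit. Its level was 3.40, 3.56 and 3.41 FPKM in KO libraries 1 to 3, against 4.35, 3.60 and 3.48 FPKM in WT libraries 1 to 3. WT replicate 1 stood above the other 5 libraries, which lay between 3.40 and 3.60 FPKM. The log2 difference was -0.12 ± 0.10, with an adjusted limma p of 0.613. It was -0.03 without WT replicate 1.

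**Figure D2:**
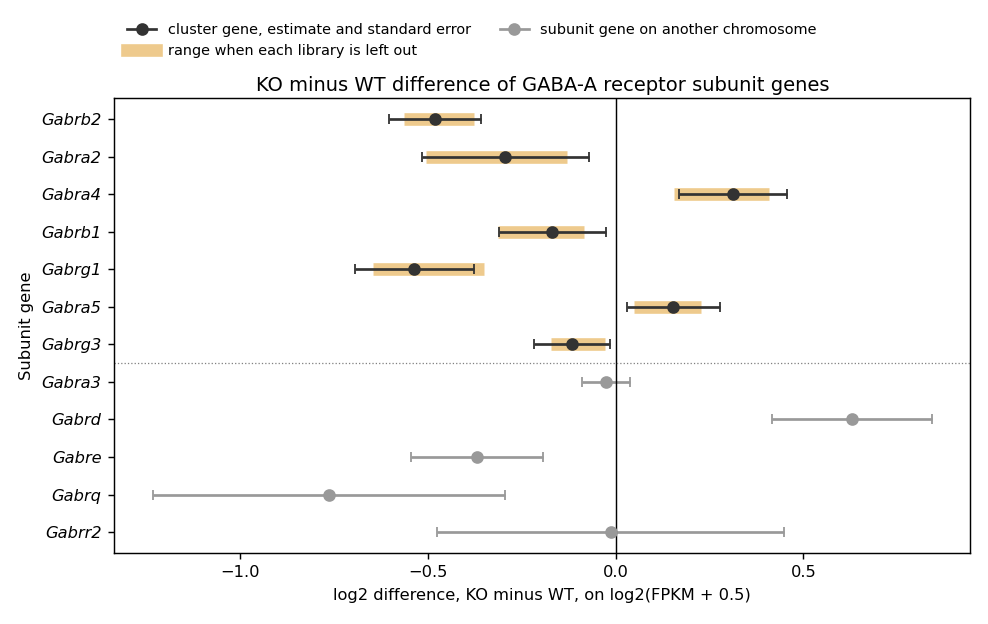
Log2 difference (x axis, KO minus WT, in log2(FPKM + 0.5)) for the 7 cluster genes and, in grey, 5 subunit genes on other chromosomes (y axis), with standard errors and, for the cluster genes, the range when each library is left out in turn. Gabrb2 (-0.48) and Gabrg1 (-0.54) lie furthest left among the cluster genes and Gabra4 (0.31) furthest right, and no gene passed the adjusted threshold.

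FPKM is scaled to 1 annotated length per gene, so levels can be set beside each other only roughly. The transcript forms in use were not examined, and the overlap given above may affect the place of Gabra5. In KO the order of mean levels was Gabrb2 (19.9 FPKM), Gabra4 (19.7), Gabra5 (13.6), Gabrb1 (9.63), Gabrg1 (8.31), Gabra2 (5.67) and Gabrg3 (3.46). In WT it was Gabrb2 (28.0 FPKM), Gabra4 (15.6), Gabra5 (12.2), Gabrg1 (12.1), Gabrb1 (11.0), Gabra2 (7.10) and Gabrg3 (3.81). Neighbours with overlapping ranges were Gabrb2 and Gabra4, Gabrb1 and Gabrg1, and Gabrg1 and Gabra2 in KO. In WT they were Gabra5 and Gabrg1, and Gabrg1 and Gabrb1. Gabrb2 exceeded Gabra4 in 1 of 3 KO libraries and in 3 of 3 WT libraries.

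Ratios between genes of the same library do not depend on how libraries are scaled. The following ratios were chosen after the levels were seen and are given without a test. The ratio of Gabrb2 to Gabra4 was 0.993, 0.919 and 1.16 in KO replicates 1 to 3, against 1.89, 1.91 and 1.58 in WT replicates 1 to 3, with no overlap. The ratio of Gabra4 to Gabrg1 was 1.95, 3.90 and 1.77 in KO, against 1.40, 1.09 and 1.40 in WT, also with no overlap. The summed level of the 4 genes on chromosome 5 was 43.3 ± 3.04 FPKM in KO and 45.7 ± 4.57 FPKM in WT (SD, n = 3 each), and the groups overlapped. Gabrg1 made up 22.9%, 13.6% and 21.7% of that sum in KO, against 24.3%, 27.7% and 27.5% in WT. Gabra4 made up 44.7%, 52.9% and 38.4% in KO, against 34.1%, 30.2% and 38.6% in WT, where KO replicate 3 and WT replicate 3 overlapped. The head-to-head pair varied in its ratio as well. Gabra4 over Gabrb1 was 2.08, 2.54 and 1.58 in KO, against 1.39, 1.19 and 1.80 in WT. On chromosome 7 the sum of both genes was 17.1 ± 1.83 FPKM in KO and 16.0 ± 1.76 FPKM in WT, and Gabra5 over Gabrg3 was 3.80, 3.41 and 4.61 in KO, against 3.04, 3.51 and 3.05 in WT.

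**Figure D3:**
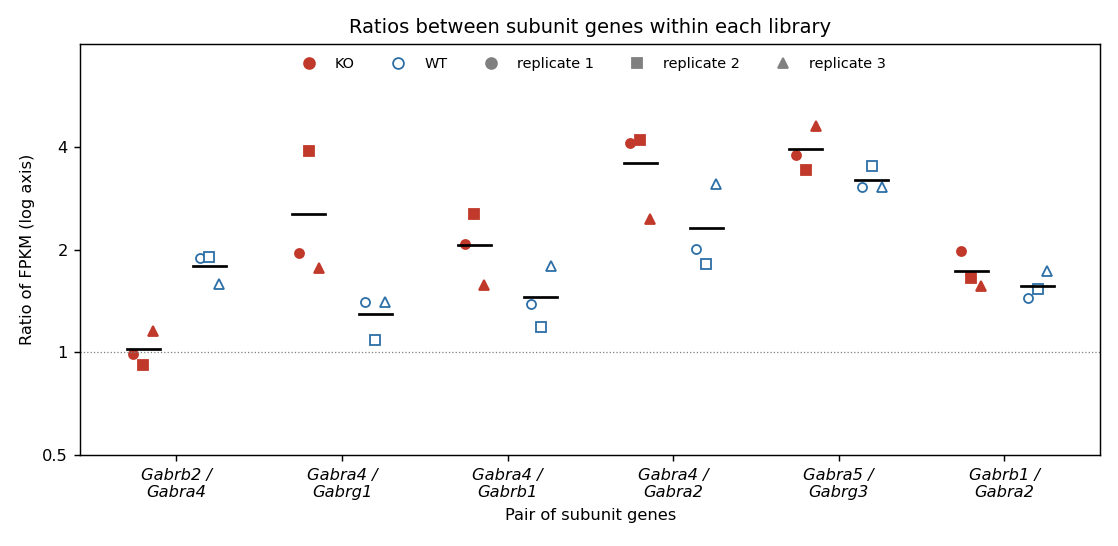
Ratio of FPKM values between pairs of subunit genes (x axis) within each library (y axis, log scale), with KO filled and left of WT and horizontal bars for group means. Gabrb2 over Gabra4 lies between 0.919 and 1.16 in KO and between 1.58 and 1.91 in WT, whereas Gabrb1 over Gabra2 overlaps between the groups.

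The 7 genes did not share a single profile across libraries. Profiles were compared as the root mean square difference between log2(FPKM + 0.5) values, each centred on its mean over the 6 libraries. The closest pair was Gabra2 and Gabrb1 (0.13), both low in KO replicate 1 and WT replicate 3, and the most distant pair was Gabra4 and Gabrg1 (0.56), which share a cluster. Gabra4 and Gabrb1, whose 5′ ends overlap, differed by 0.35. WT replicate 3 was the lowest WT library for 6 of the 7 genes, with Gabra4 the exception, and WT replicate 1 was the highest for 6 of the 7. WT replicate 3 had the lowest mitochondrial share of reads, 3.42%, against 6.90% and 8.14% in the other WT libraries. Its part in these levels was not tested.

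**Figure D4:**
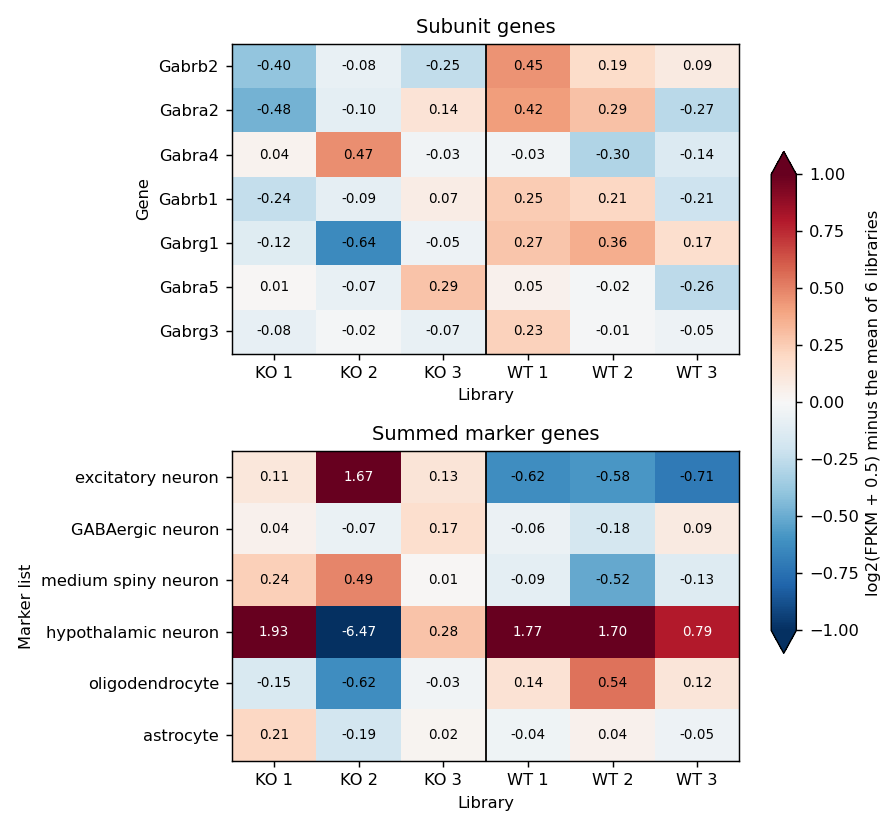
Log2(FPKM + 0.5) minus its mean over the 6 libraries (colour and printed values, colour capped at 1 in each direction) for the 7 subunit genes (upper panel) and for summed markers of 6 cell types (lower panel) in each library (x axis, KO left of WT). Gabra4 is highest and Gabrg1 lowest in KO replicate 2, the library in which excitatory neuron markers are highest (1.67) and hypothalamic neuron markers lowest (-6.47).

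By the same measure, each gene was compared with 12194 protein-coding genes of at least 1 FPKM. Genes this near are found by searching many profiles over only 6 libraries that share depth and tissue mix, so the names describe likeness alone. Nearest to Gabrb2 were Cdyl2 (0.073), Tmem74 (0.079) and Eea1 (0.083), where the median over all candidates was 0.31. Nearest to Gabrg1 were Smim17 (0.037), Pnma3 (0.064) and Psd2 (0.064), with mean levels below WT in KO. Nearest to Gabra4 were Speg (0.027), Gdpd5 (0.029) and Atp2b2 (0.029), the last a plasma membrane calcium pump that measured 46.7 FPKM in KO and 37.0 FPKM in WT. Fut9, Zfp950 and Ankrd12 were nearest to Gabra2, and Zcchc7, Cfap69 and Fgf12 to Gabrb1. Zfp28, Ctns and Txnl4b were nearest to Gabra5, and Zfp386, Phc3 and Bloc1s5 to Gabrg3.

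Genes beside the clusters were examined as a description of the regions, leaving out subunit genes. Within 2 Mb of the chromosome 5 genes lay 26 protein-coding genes, of which 15 were tested, 0 passed the adjusted threshold, 4 were lower and 1 higher at an unadjusted limma p under 0.05. For comparison, 6.85% of all genes tested were lower and 8.36% higher by that rule. The median log2 difference of the 15 was -0.10. Cox7b2, which lies between Gabra2 and Gabra4, was too low for the test at a mean of 0.335 FPKM in KO and 0.264 FPKM in WT. Commd8, 7.54 kb beyond Gabrb1, measured 11.5 FPKM in both groups (log2 difference -0.01). Corin, the next in distance, was below the filter. Around the chromosome 7 genes 9 of 10 were tested, with a median of -0.17, 3 lower and 0 higher at an unadjusted p under 0.05. Around Gabrb2 on chromosome 11, 13 of 19 were tested, with a median of -0.01, 1 lower and 0 higher, and the nearest tested were Pttg1 (0.01), Slu7 (-0.01) and C1qtnf2 (-0.09). None of these neighbours passed the adjusted threshold.

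Subunit genes on other chromosomes gave a mixed picture. Of 7 such genes 5 passed the filter, 0 passed the adjusted threshold, Gabrd was higher in KO without overlap and Gabre lower. For comparison, 11.8% of all genes tested stood higher and 10.8% lower without overlap. Gabra3, the X-linked alpha3 gene, measured 32.6 ± 0.791 FPKM in KO and 33.2 ± 0.615 FPKM in WT (SD, n = 3 each), a log2 difference of -0.03 ± 0.06. It lay between 31.7 and 33.9 FPKM in all 6 libraries. Gabre and Gabrq are also X-linked, and the part of sex in the levels of these X-linked genes was not tested. Gabre, the epsilon subunit gene, measured 0.730, 0.385 and 0.489 FPKM in KO, against 0.847, 0.751 and 0.874 FPKM in WT, with a log2 difference of -0.37 and an unadjusted limma p of 0.0733. Gabrq, the theta subunit gene, measured 3.31, 0.547 and 2.83 FPKM in KO, against 3.08, 3.93 and 3.58 FPKM in WT, and was lowest in KO replicate 2. Gabrr2, a rho subunit gene, measured 3.31, 0.472 and 1.10 FPKM in KO, against 1.11, 1.43 and 1.46 FPKM in WT, with both extremes in KO. Gabrr1 and Gabrr3 lay below the filter. So did Gabrp, the pi subunit gene, which is on chromosome 11 and was listed at 0 in all 6 libraries.

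Genes that assemble, move and anchor GABA-A receptors had differences in both directions. Of 22 listed 21 had a row and were tested, 0 passed the adjusted threshold, and 2 were higher and 3 lower at an unadjusted limma p under 0.05. For comparison, 8.36% of all genes tested were higher and 6.85% lower by that rule. The median log2 difference of the 21 was 0.03. Rdx, which encodes radixin, the anchor of alpha5 receptors, measured 20.8, 19.6 and 21.6 FPKM in KO, against 24.0, 26.1 and 27.2 FPKM in WT, without overlap. Its log2 difference was -0.31 ± 0.08, with an adjusted limma p of 0.207. Shisa7, an auxiliary subunit of GABA-A receptors, measured 23.4 ± 3.42 FPKM in KO and 17.7 ± 2.44 FPKM in WT (log2 0.40). Plcl1, whose product binds GABA-A receptors and acts in their traffic to the membrane, had a log2 difference of -0.37, and Trak1, a motor adaptor, one of 0.22. Gphn, the scaffold gephyrin, measured 19.7 ± 1.56 FPKM in KO and 19.2 ± 0.647 FPKM in WT. It was chosen after its values were seen.

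Genes of GABA synthesis, uptake, breakdown and chloride transport were tested in full, 10 of 10. None passed the adjusted threshold, 1 was lower and 0 higher at an unadjusted limma p under 0.05, and the median log2 difference was -0.09. Without overlap, 4 were lower in KO, Slc12a2, Slc6a11, Gad2 and Aldh5a1, and 0 higher. Of all genes tested, 10.8% stood lower without overlap and 6.85% were lower at an unadjusted limma p under 0.05. The 1 gene lower by that p was Slc12a2, the chloride importer NKCC1. It measured 14.5, 14.6 and 18.3 FPKM in KO, against 19.8, 25.0 and 20.9 FPKM in WT, without overlap. Its log2 difference was -0.46 ± 0.13, with an adjusted limma p of 0.220. Slc6a11, the astrocytic GABA transporter, measured 85.9, 49.2 and 87.1 FPKM in KO, against 95.1, 115 and 95.9 FPKM in WT, and was lowest in KO replicate 2. Gad2, a GABA-synthesizing enzyme, measured 99.9 ± 8.95 FPKM in KO and 115 ± 6.79 FPKM in WT (log2 -0.20). Aldh5a1, which acts in GABA breakdown, had a log2 difference of -0.14. Summed over 6 genes, GABAergic neuron markers measured 692, 641 and 755 FPKM in KO, against 643, 593 and 713 FPKM in WT, with overlap between the groups. Sst was the largest part of each sum, and the genes differed in direction. Vip was higher and Gad2 lower in KO without overlap. Vip and Sst were higher at an unadjusted limma p under 0.05 (log2 0.51 and 0.31), and Pvalb had a log2 difference of -0.35. Of all genes tested, 11.8% stood higher without overlap and 8.36% were higher at that p.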

How the data were processed

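Transcript levels were measured by RNA sequencing in 3 KO and 3 WT libraries. Per the labels' protocols, total RNA was column-purified and SMARTer mRNA libraries were built from it. The genome build was GRCm38 (mm10), per the submitters' processing notes. The aligner, the counter and the annotation were not given in the sources used here. The authors deposited 1 table of FPKM values with gene lengths and coordinates, and 0 sample columns were left unmatched. FPKM multiplied by gene length gave whole multiples of 1 step per library, taken as 1 read, for 100% of nonzero values within 0.01 of a read.

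Groups were compared with limma 3.58.1 in R 4.3.3 (trend and robust settings) on log2(FPKM + 0.5), which understates changes of low genes. The fit covered the 16155 genes whose mean reached 0.5 FPKM and was tested on simulated reads. Alternatives were other pseudocounts, filters, scalings, limma settings, voom on recovered reads, removal of a gene length trend, a replicate block and leaving out each library. Labels name the mice by number only, so p-values reflect only the spread between these libraries, which may be technical in part. By its sex genes, KO replicate 1 came from another mouse than KO replicates 2 and 3. The members and lists were chosen with earlier results of these data known. Named genes were the members, subunits outside the clusters, the 4 genes of smallest p in each pathway list, the 3 genes nearest in profile to each member and the nearest neighbours on chromosomes 5 and 11. Other subunit genes of these clusters are not reported here.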

Additional observations from a re-analysis of the deposited data

How the results depend on the processing

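No member passed the adjusted threshold in limma under any of the 18 alternatives (0 called in each, voom included, with 2 to 4 at an unadjusted p under 0.05), and each member kept the sign of its difference wherever it was tested. Gabrg3 was not tested at the filter of 5 FPKM. Adjusted p ranged over the alternatives from 0.0954 to 0.479 for Gabrb2 and from 0.136 to 0.510 for Gabrg1, and their unadjusted p stayed at or below 0.0388. Log2 differences ranged from -0.56 to -0.38 for Gabrb2, -0.65 to -0.35 for Gabrg1, -0.50 to -0.13 for Gabra2, 0.16 to 0.41 for Gabra4, -0.31 to -0.08 for Gabrb1, 0.05 to 0.23 for Gabra5 and -0.18 to -0.03 for Gabrg3. Voom gave -0.18 for Gabrg3. The count over all genes, 2 at first, was 0 with a pseudocount of 0.1, no filter, a filter at 5 FPKM, voom or the length trend removed, 1 with quantile normalization and 5 after rescaling to an equal FPKM sum. It was 0 to 9 when each library was left out, with 9 without KO replicate 1. The cause was not tested. With the replicate block, 0 genes passed, against 1664 at an unadjusted p under 0.05. Deviations from the group mean were weakly correlated between libraries of the same number (r across genes -0.09, -0.14 and -0.07). With 3 libraries per group these values cannot decide whether the numbers pair the samples. Cluster sums (log2 KO over WT) ranged from -0.16 to -0.01 on chromosome 5 and from 0.01 to 0.17 on chromosome 7. Each member rested on 623 to 3778 reads per library. Counts were lower for Gabra2, Gabra5 and Gabrg3 than for Gabrb2, which makes their relative counting error larger. The limma standard errors were 0.22 for Gabra2, 0.12 for Gabra5, 0.10 for Gabrg3 and 0.12 for Gabrb2.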
